A study of Mus musculus with 219 samples.

Results

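Cyclin B1 and cyclin B2, their partner kinase and 7 further cell cycle genes (the A and E cyclins, CDC25 phosphatases, Plk1 and Cdc20) were followed through single-embryo RNA sequencing of mouse embryos made by intracytoplasmic sperm injection (ICSI) at a chosen site of the oocyte. The 10 genes were taken by symbol (Ccnb1, Ccnb2, Ccna2, Ccne1, Ccne2, Cdk1, Cdc25a, Cdc25b, Cdc20 and Plk1), and all 10 were found once among the 32285 genes of both count tables. All embryos came from B6C3F1 oocytes and CD1 sperm, which gives the labelled genotype B6C3F1xCD1, and no embryo was conceived without ICSI. The sperm head had been placed far from the meiotic spindle (contralateral, the vegetal pole), beside it (ipsilateral, called isolateral in the labels, the animal pole) or at the equator between them (equatorial). At the 2-cell stage embryos were bisected and each sister blastomere was sequenced, in 21 contralateral, 21 ipsilateral and 13 equatorial embryos with both sisters kept. At the blastocyst stage, both twins grown from separated sister blastomeres were sequenced in 6 contralateral, 7 ipsilateral and 6 equatorial pairs, beside 11, 8 and 12 single blastocysts from embryos left intact. An embryo was 1 replicate, with the counts of both sisters or both twins added.

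The embryos divide by a cycle in which a cyclin binds a cyclin-dependent kinase and switches it on. Ccne1 and Ccne2 encode the E cyclins, which act at entry into S phase, and Ccna2 encodes cyclin A2, which acts in S phase and on the way into mitosis. Ccnb1 and Ccnb2 encode the B cyclins, which pair with Cdk1 to bring about mitosis. The phosphatases encoded by Cdc25a and Cdc25b remove inhibitory phosphates from the kinase, Plk1 encodes a polo-like kinase that promotes this step and later ones, and Cdc20 encodes an activator of the anaphase promoting complex, the ubiquitin ligase that marks B cyclins for destruction. Oocytes store Ccnb1 and other cell cycle transcripts, and early cleavage in the mouse runs on a mixture of such maternal transcripts and new ones.

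The libraries held 360474 to 2100561 counts per blastomere and 234099 to 2161062 per blastocyst. The embryo groups differed in depth at the 2-cell stage, with median totals per embryo of 2675357 counts in contralateral, 3050508 in ipsilateral and 2179479 in equatorial embryos. Among blastocysts, twin pairs had a median total of 2200256 counts against 705837 in intact blastocysts, of which 7 of 31 stood apart with fewer than 10000 detected genes. Of the cumulus and granulosa cell list, 2 of 9 genes (Amh and Inha) were at 0 in all 2-cell embryos, and the summed level of the list was between 1.33 and 73.6 CPM (an embryo's counts scaled to a common total). Trophectoderm markers summed to at least 3972 CPM in every blastocyst, and at most 418 CPM in any 2-cell embryo. CPM are shares of an embryo's counts, so that fewer cells of a type and less RNA per cell cannot be told apart.

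The proximal promoters of 5 of the genes are shown because these genes form the kinase, its B cyclins, the polo-like kinase and the Cdc20 step, and because their levels are set side by side in the sections that follow. Each run is the 120 bases ahead of the more upstream of the RefSeq and GENCODE starts of the gene, read 5′ to 3′ on the gene's own strand (RefSeq, GRCm38.p6). Capitals mark CCAAT, the cell cycle homology letters TTTGAA or TTTAAA, and the E2F letters TTTCGCGC or TTTGGCGC, on either strand (a CCAAT on the other strand reads ATTGG).
Ccnb1, chr13:100786571-100786690, minus strand: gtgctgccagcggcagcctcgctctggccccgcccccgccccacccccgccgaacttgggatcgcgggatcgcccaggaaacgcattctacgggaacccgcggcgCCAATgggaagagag
Ccnb2, chr9:70421555-70421674, minus strand: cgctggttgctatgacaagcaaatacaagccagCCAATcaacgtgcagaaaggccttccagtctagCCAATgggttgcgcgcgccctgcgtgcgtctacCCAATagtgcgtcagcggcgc
Cdk1, chr10:69352939-69353058, minus strand: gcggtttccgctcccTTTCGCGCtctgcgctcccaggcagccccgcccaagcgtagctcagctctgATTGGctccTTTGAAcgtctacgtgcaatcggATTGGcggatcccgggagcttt
Cdc20, chr4:118437353-118437472, minus strand: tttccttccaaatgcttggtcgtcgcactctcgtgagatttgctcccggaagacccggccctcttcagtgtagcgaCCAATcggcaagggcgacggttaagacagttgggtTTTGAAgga
Plk1, chr7:122159315-122159434, plus strand: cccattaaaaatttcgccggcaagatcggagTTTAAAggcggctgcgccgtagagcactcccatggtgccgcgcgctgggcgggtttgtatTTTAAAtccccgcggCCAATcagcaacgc
In the whole 250 bases before the RefSeq start, CCAAT was present in 7 of the 8 genes with an entry (all but Ccne1), against 33.8% of 32851 promoters of the same length. Ccnb2 carried it 3 times within the stretch shown. TTTGAA was found in Ccnb2, Cdk1 and Cdc20 (15.99% of promoters) and TTTAAA in Ccnb1, Ccne1 and Plk1 (12.1%). TTTCGCGC stood in Cdk1 alone among the 8 (0.256% of promoters), and TTTGGCGC in Cdc25a alone (0.417%). Ccna2 and Ccne2 had no entry.

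Per exonic length, Ccnb1 led the group in 2-cell embryos. Its level was 727 ± 107.6 TPM (counts per exonic length scaled to a common total, mean ± SD, n = 55 embryos). It stood above Ccna2, the next in order at 413 ± 52.4 TPM, in 55 of 55 embryos. Below Ccna2 came Ccnb2 at 376 ± 119.3, Cdc20 at 290 ± 80.5 and Ccne1 at 275 ± 102.2 TPM. Each mean step between these neighbours was smaller than its SD over embryos. The upper gene was higher in 32 of 55 embryos for Ccna2 over Ccnb2 and in 29 for Cdc20 over Ccne1. Ccnb2 was above Cdc20 more regularly, in 40 embryos (mean log2 ratio 0.34, SD 0.77), and no test was made. Plk1 (188 ± 75.02), Ccne2 (164 ± 43.9) and Cdk1 (158 ± 46.1 TPM) formed a further set with little order among themselves. The phosphatase transcripts were lowest, at 74.8 ± 25.6 TPM for Cdc25b and 17.7 ± 10.2 TPM for Cdc25a, and Cdc25b was the higher of the pair in 55 of 55 embryos. This order rests on the lengths used, the union of all annotated exons (4934 bases for Cdk1 and 1531 for Ccnb2). In CPM, which leave length out, the median of Cdk1 (236) was above that of Ccnb2 (175). Ccnb1 (951) and Ccna2 (504.5) were above both.

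The order in TPM was another one in blastocysts. Cdc20 was first in intact blastocysts at 172 ± 72.4 TPM (n = 31), followed by Ccnb1 at 165 ± 69.1, Ccnb2 at 143 ± 68.4, Plk1 at 109.1 ± 63.3 and Ccna2 at 105.5 ± 48.9 TPM, and each of these steps was within the spread between embryos. Cdc25b was last, at 3.81 ± 4.56 TPM, and had no count in 10 of 31 intact blastocysts. In twin pairs (n = 19) Cdc20 (456 ± 61.4 TPM) and Ccnb2 (435 ± 61.9 TPM) led, and Ccnb2 exceeded Ccnb1 (279 ± 39.1 TPM) in 19 of 19 pairs.

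**Figure D1:**
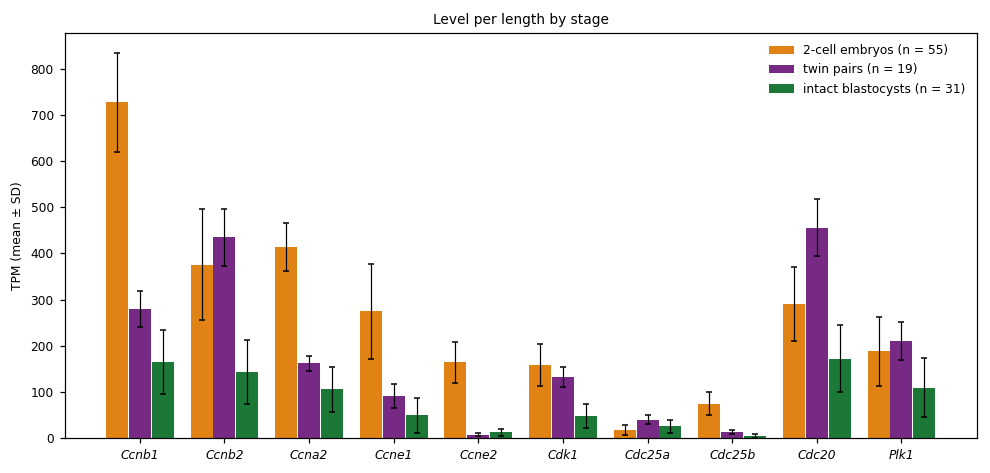
Level per exonic length (TPM, vertical axis) of the 10 genes in 2-cell embryos, twin pairs and intact blastocysts. Bars are means over embryos and error lines are 1 SD. Ccnb1 is the tallest bar at the 2-cell stage (727 TPM), while Cdc20 is tallest in twin pairs (456 TPM) and in intact blastocysts (172 TPM).

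In CPM, 4 of the 10 genes had ranges that did not overlap between 2-cell embryos and intact blastocysts, against 13.3% of 14555 genes, and all 4 were higher at the 2-cell stage (8.63% of genes). No test was made of this contrast, which for most embryos also separates 2 sets of libraries. Ccnb1 lay between 533 and 1245 CPM in 2-cell embryos (median 951) and between 11.1 and 399 CPM in intact blastocysts (median 272). Ccna2 lay between 409 and 620 CPM against 3.69 to 305 CPM. Ccne2 had a median of 166 CPM against 13.3 CPM, the widest ratio of medians among the cyclins (12.5), and Cdc25b had a median of 81.5 CPM against 2.81 CPM. Cdc25a was the 1 gene with the higher median in intact blastocysts (62.3 CPM against 36.8), with overlapping ranges.

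The first question was whether the site of ICSI moved the levels of these genes in 2-cell embryos. The B cyclins were higher after contralateral than after equatorial ICSI, and the E cyclins moved in opposite directions. Of the 10 genes, 5 passed the threshold in this comparison (edgeR's quasi-likelihood test with plate as a term, Benjamini-Hochberg adjusted p under 0.05 over 13141 genes), 3 higher and 2 lower in contralateral embryos, while 13.2% of all genes passed, 7.12% as higher and 6.06% as lower. The median log2 difference was -0.06 over the 10 genes and -0.00015 over all genes.

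Ccnb1 ranged from 604 to 1245 CPM in contralateral embryos with a median of 1085, from 796 to 1236 CPM in ipsilateral embryos with a median of 951, and from 533 to 980 CPM in equatorial embryos with a median of 677. The groups overlapped, and the highest equatorial embryo was above the median of the ipsilateral ones. The log2 difference of contralateral from equatorial embryos was 0.46 ± 0.08 (SE, adjusted p = 4.5e-05, edgeR). Ccnb2, the second B cyclin, ranged from 91.1 to 273 CPM (median 214) in contralateral, from 147 to 305 CPM (median 183) in ipsilateral and from 56.8 to 193 CPM (median 108.3) in equatorial embryos. Its difference was larger than that of Ccnb1, at 0.82 ± 0.14 on the log2 scale (edgeR adjusted p = 5.7e-05).

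The E cyclins parted. Ccne2 had medians of 194, 178 and 130.98 CPM in contralateral, ipsilateral and equatorial embryos and was higher after contralateral than after equatorial ICSI by 0.55 ± 0.14 (log2, edgeR adjusted p = 0.0033). Ccne1 had medians of 174, 228 and 291 CPM in the same order and was lower, with a log2 difference of -0.74 ± 0.15 (edgeR adjusted p = 0.00030). Its lowest contralateral embryo was at 85.5 CPM and its highest equatorial one at 421 CPM, with overlap between 168 and 277 CPM. Plk1 was lower too, at medians of 101.6 CPM against 149 CPM and a log2 difference of -0.57 ± 0.19 (edgeR adjusted p = 0.030), a call that was lost when library size and detected genes entered the fit, at a log2 difference of the same size (-0.57, adjusted p = 0.068).

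The other 5 genes did not pass. Ccna2 was the most even of the group, between 409 and 620 CPM over all 55 embryos, and its contralateral to equatorial difference was -0.02 ± 0.06 on the log2 scale. Cdk1 differed by -0.06 ± 0.14 and Cdc25b by -0.05 ± 0.18. For Cdc20 the value was -0.24 ± 0.13 and for Cdc25a -0.55 ± 0.26, the latter with an unadjusted p of 0.041 and an edgeR adjusted p of 0.17.

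**Figure D2:**
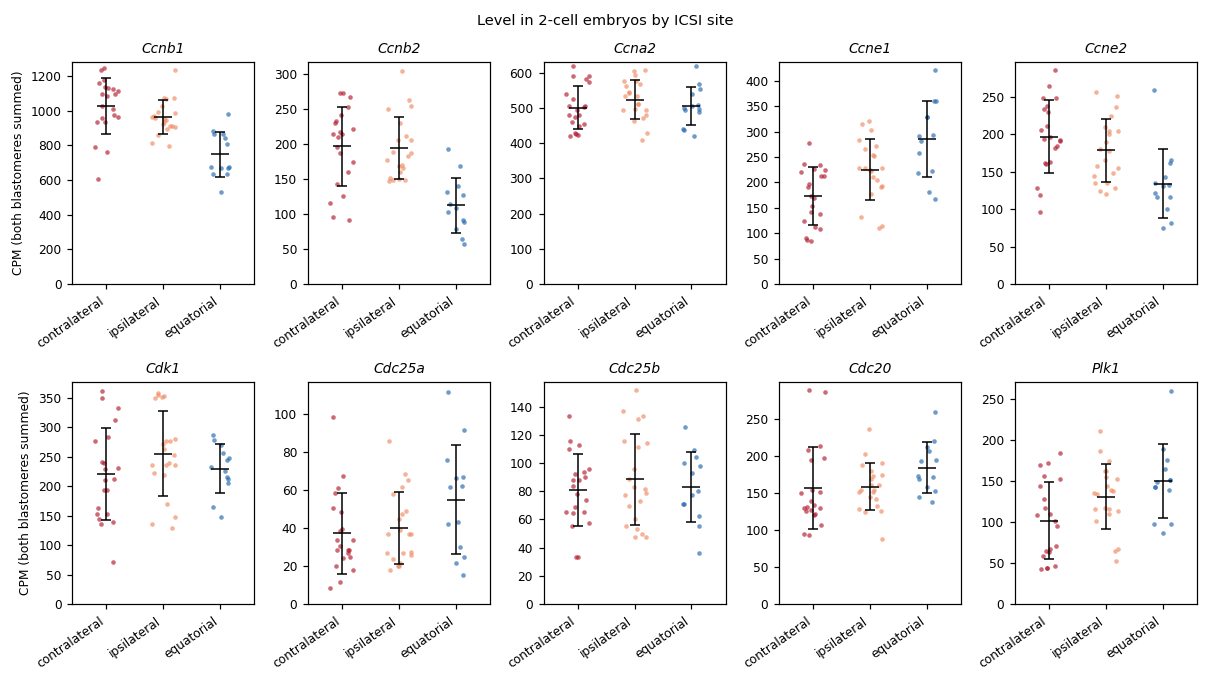
CPM of the 10 genes in each 2-cell embryo (both blastomeres added) after contralateral (n = 21), ipsilateral (n = 21) and equatorial (n = 13) ICSI; points are embryos, horizontal marks with error lines are means ± SD, and each panel has its own axis from 0. The equatorial points sit lower for Ccnb1 (mean 748 CPM against 1026 in contralateral embryos) and Ccnb2 (113 against 197 CPM), and higher for Ccne1 (286 against 172 CPM).

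Against the same 13 equatorial embryos, the ipsilateral embryos gave 2 calls among the 10 genes, both higher, with 6.65% of all genes called, 3.43% as higher and 3.22% as lower. Both were B cyclins, at log2 differences of 0.34 ± 0.08 for Ccnb1 (edgeR adjusted p = 0.0046) and 0.70 ± 0.14 for Ccnb2 (adjusted p = 0.0014). Ccne2 was at 0.42 ± 0.14 with an edgeR adjusted p of 0.051. Ccne1 was at -0.35 ± 0.15 and Plk1 at -0.22 ± 0.19, both short of the threshold. With all 62 sequenced sister pairs in the fit, Ccne1 passed (-0.46, edgeR adjusted p = 0.026). Because both comparisons share the equatorial embryos, their values stand side by side only.

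Contralateral and ipsilateral embryos were also set against each other. None of the 10 genes passed in edgeR (0 of 13141 genes, 0.0%), and DESeq2 called none of the 10 either. At an unadjusted p under 0.05 there were 2 of the 10, Ccne1 at -0.39 ± 0.14 (p = 0.0049, edgeR) and Plk1 at -0.35 ± 0.17 (p = 0.037, edgeR), against 4.22% of all genes.

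The libraries were made on 2 plates. Plate 1 held 42 of the 55 embryos. Within it Ccnb1 differed between contralateral and equatorial embryos by 0.54 and Ccnb2 by 0.92 on the log2 scale. All 5 genes called over both plates were called there. The share of all genes called within plate 1 is not given here, and over both plates it was 13.2%. Plate 2 held 3 contralateral, 8 ipsilateral and 2 equatorial embryos, and no gene of the whole table was called there in either comparison with the equatorial site. Within plate 2, Ccnb1 differed by 0.16 ± 0.15 (contralateral) and 0.05 ± 0.13 (ipsilateral), Ccnb2 by 0.46 ± 0.28 and 0.48 ± 0.25, Ccne1 by -0.43 ± 0.33 and 0.17 ± 0.29, and Plk1 by 0.02 ± 0.40 and -0.36 ± 0.34 on the log2 scale. With library size and detected genes as covariates, the contralateral values for Ccnb1 and Ccnb2 were 0.43 and 0.74 and remained called. The ipsilateral values were 0.31 and 0.59 with edgeR adjusted p of 0.091 and 0.080. In that ipsilateral comparison no member was called, and 61 genes of the whole table were.

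**Figure D3:**
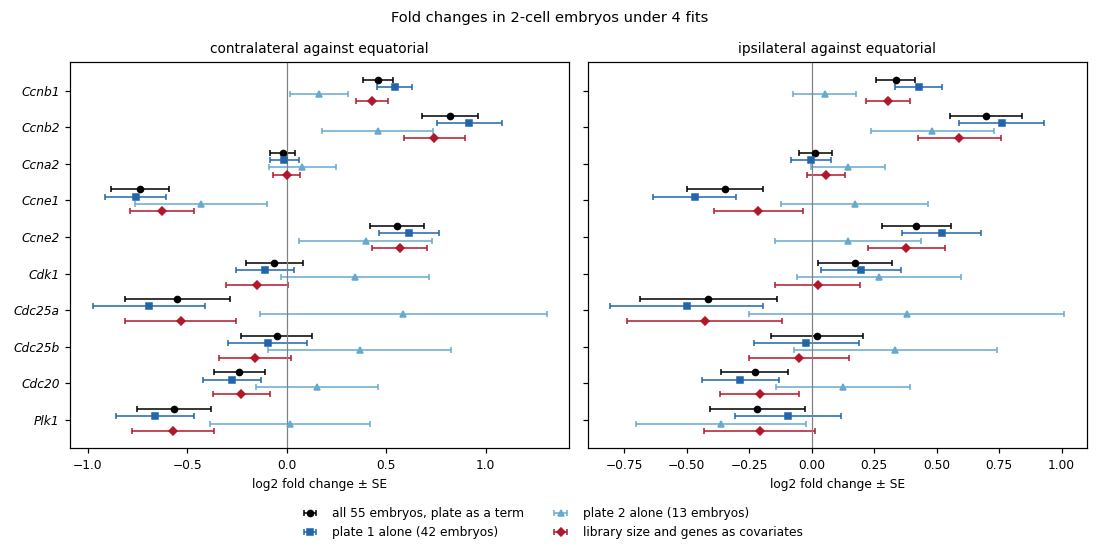
Log2 fold changes (horizontal axis, points, with 1 SE) of the 10 genes in contralateral (left) and ipsilateral (right) against equatorial 2-cell embryos, from the fit with all 55 embryos, from each plate alone and with depth covariates. Ccnb2 lies right of 0 in all 4 fits in both panels (0.46 to 0.92 in the left panel), and the plate 2 estimates have the widest error lines.

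Genes acting with the 10 were examined as 3 lists. Of 33 measured genes for mitotic kinases, the phosphatase switch and the spindle checkpoint, 9 were higher and 2 lower in contralateral than in equatorial embryos (median log2 difference 0.08), where 7.12% of all genes were called higher and 6.06% lower. Mad2l1, a spindle checkpoint protein, rose by 0.81 ± 0.12 and Chek1, the DNA damage checkpoint kinase, by 0.41 ± 0.09, while Mybl2, a transcription factor of late cell cycle genes, fell (-0.63 ± 0.11) and so did Incenp, the scaffold of the chromosomal passenger complex (-0.79 ± 0.15). Of 21 genes of the anaphase promoting complex and its regulators, 3 were higher and 1 lower (median 0.15), with the subunit gene Anapc10 at 0.69 ± 0.13. Of 24 measured genes of G1 and S phase control, 2 were higher and 3 lower (median -0.14), with E2f4, a repressor of the E2F family, at -0.72 ± 0.14. These last lists had 4 of 21 and 5 of 24 genes called, against 13.2% of all genes. The edgeR adjusted p of these 6 genes ran from 3.7e-06 to 0.00072.

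In ipsilateral embryos the counts against the equatorial site were 4 higher and 2 lower, 1 higher and 2 lower, and 0 higher and 2 lower in the same 3 lists (3.43% of all genes higher and 3.22% lower). Mad2l1 (0.65 ± 0.12), Ccnb3, a further B-type cyclin (2.07 ± 0.50), and Anapc10 (0.53 ± 0.13) rose, and E2f1 (-0.72 ± 0.15), the separase gene Espl1 (-0.76 ± 0.17) and Mybl2 (-0.47 ± 0.11) fell, with edgeR adjusted p from 0.00037 to 0.0070. None of the 3 lists gave a call between contralateral and ipsilateral embryos.

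The 3 lists were chosen with earlier results of these embryos known and are no independent evidence of direction.

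Transcripts known from activation of the embryonic genome at the 2-cell stage were examined as well. Of 7 measured genes of the 2-cell activation list, 2 were higher after contralateral and 2 after ipsilateral than after equatorial ICSI, where 13.2% and 6.65% of all genes were called. At each site 5 of the 7 did not pass. The largest change was that of Zscan4f at 2.07 ± 0.50 and 1.86 ± 0.49 (log2, edgeR adjusted p = 0.0026 and 0.012). The study states that Zscan4, which it names as a late 2-cell transcript, was absent from its 110 blastomeres. In the counts used here each gene of the list, Zscan4f among them, was detected in some embryos of every site. The reason for this difference was not tested. The summed level of the list ranged from 750 to 1488 CPM in contralateral, 728 to 1477 CPM in ipsilateral and 452 to 1259 CPM in equatorial embryos. Of 12 oocyte transcripts, 3 were higher and 1 lower in contralateral embryos, with Ooep at 0.54 ± 0.16 (adjusted p = 0.014), and 1 was higher and 0 lower in ipsilateral embryos, where Zp1 had the largest value at -0.46 ± 0.22 (adjusted p = 0.21). With the summed 2-cell activation level as a covariate, Ccnb1 differed by 0.38 and Ccnb2 by 0.73 between contralateral and equatorial embryos and both remained called, whereas Plk1 did not (-0.53, edgeR adjusted p = 0.065). In the lists for cumulus and granulosa cells, trophectoderm, epiblast and primitive endoderm no gene passed in edgeR at either site, and the largest contralateral values were those of Has2 (-1.83 ± 0.98), Tead4 (-1.48 ± 0.87), Fgf4 (-1.03 ± 0.72) and Lama1 (-0.54 ± 0.85).

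Embryos with much Ccnb1 were not those with much of every other member. After removal of the means of each ICSI site and plate, the gene whose log2 CPM followed that of Ccnb1 most closely over the 55 embryos was Oser1 (Spearman correlation 0.84), followed by Ubb (0.79) and Umodl1 (0.79). Ccnb2 was the nearest member, at 0.58 and place 90 among all other genes, then Ccne2 at 0.32, whereas Cdk1 was at 0.13, Plk1 at -0.21 and Ccne1 at -0.44. These are descriptions over embryos that share depth and plate, without a test.

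The second question was whether sister blastomeres differed in these transcripts, and whether the site of ICSI changed how much. Sisters were alike in Ccnb1 and Ccna2. The absolute log2 difference in CPM between sisters had a median of 0.14 for Ccnb1 and 0.19 for Ccna2 over 55 pairs, against 0.87 for the median gene, and only 4.90% and 6.68% of genes had a smaller median. The median that counting error alone would give was 0.04 and 0.05. Sisters were lysed and amplified separately and without molecular identifiers, so that differences between the cells and between the amplifications cannot be told apart. Next came Ccne1 (0.23), Cdk1 (0.34), Ccne2 (0.36), Cdc20 (0.38) and Ccnb2 (0.42). Plk1 (0.62), Cdc25b (0.53) and Cdc25a (0.77) differed most, with counting error at 0.11, 0.14 and 0.21. The share of genes with a smaller median was not matched for level, and genes of few counts differ more by counting. Divided by counting error, mean differences in contralateral and equatorial pairs were 3.40 and 4.25 for Ccnb1 and 1.76 and 3.79 for Ccna2. Cdc25a gave 3.23 and 2.65, and Cdc25b 3.66 and 3.59, so the order of the members depended on the scale.

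The extremes were wide for the phosphatase Cdc25b. In 1 equatorial pair, 1 sister had 107.9 CPM and the other no count, the largest difference of the group at 6.77 on the log2 scale. Differences above 1 (a doubling) were seen in 20 of 55 pairs for Cdc25b and also 20 for Cdc25a, in 12 for Plk1 and 8 for Ccnb2, and in none for Ccnb1.

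By site, the mean sister difference of Ccna2 was 0.15 ± 0.14 in the 21 contralateral pairs, 0.17 ± 0.12 in the 21 ipsilateral pairs and 0.34 ± 0.24 (SD) in the 13 equatorial pairs. Cdk1 gave 0.54 ± 0.45, 0.26 ± 0.20 and 0.57 ± 0.36, and Ccnb2 gave 0.50 ± 0.43, 0.43 ± 0.38 and 0.81 ± 0.65. Over the 10 genes, the largest mean was in the equatorial pairs for 6, in the contralateral pairs for 3 (Ccne1, Cdc25a and Plk1) and in the ipsilateral pairs for 1 (Cdc20), and the ranges overlapped. The share of all genes with the largest mean at each site was not counted. Contralateral minus equatorial, the median over genes was -0.08 for all 13141 and -0.04 for the 10. Ipsilateral minus equatorial, it was -0.09 and -0.15. Equatorial libraries were also the shallowest. Divided by counting error, Ccnb2 gave 3.25 in contralateral and 3.78 in equatorial pairs (permutation test, unadjusted p = 0.54). None of the 10 genes passed a permutation test of the difference in means after adjustment over 13141 genes (2-sided, 100000 relabelings, plates not held apart). The smallest p this permutation test could give was 1.0e-05, so that 1 gene alone could not have passed after adjustment. In simulated data with fewer genes, the same test recovered no gene after adjustment when sister differences were more than doubled in 1 group. It recovered most genes only at a larger widening that was tried afterwards. The absence of calls therefore does not show that the sites were alike. The share of all genes called was 0.0% for contralateral against equatorial, 0.0304% for ipsilateral against equatorial and 0.0% for contralateral against ipsilateral pairs. Before adjustment, p was under 0.05 for 1, 3 and 2 of the 10 genes, and for 9.45%, 9.92% and 4.78% of all genes. The smallest were 0.0024 for Cdk1 between ipsilateral and equatorial pairs (permutation test, adjusted p = 0.21) and 0.0033 for Ccna2 between contralateral and equatorial pairs (permutation test, adjusted p = 0.26). Over all 62 sequenced pairs the Cdk1 difference between ipsilateral and equatorial pairs was 0.08 in place of -0.32 (permutation test, unadjusted p = 0.91).

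**Figure D4:**
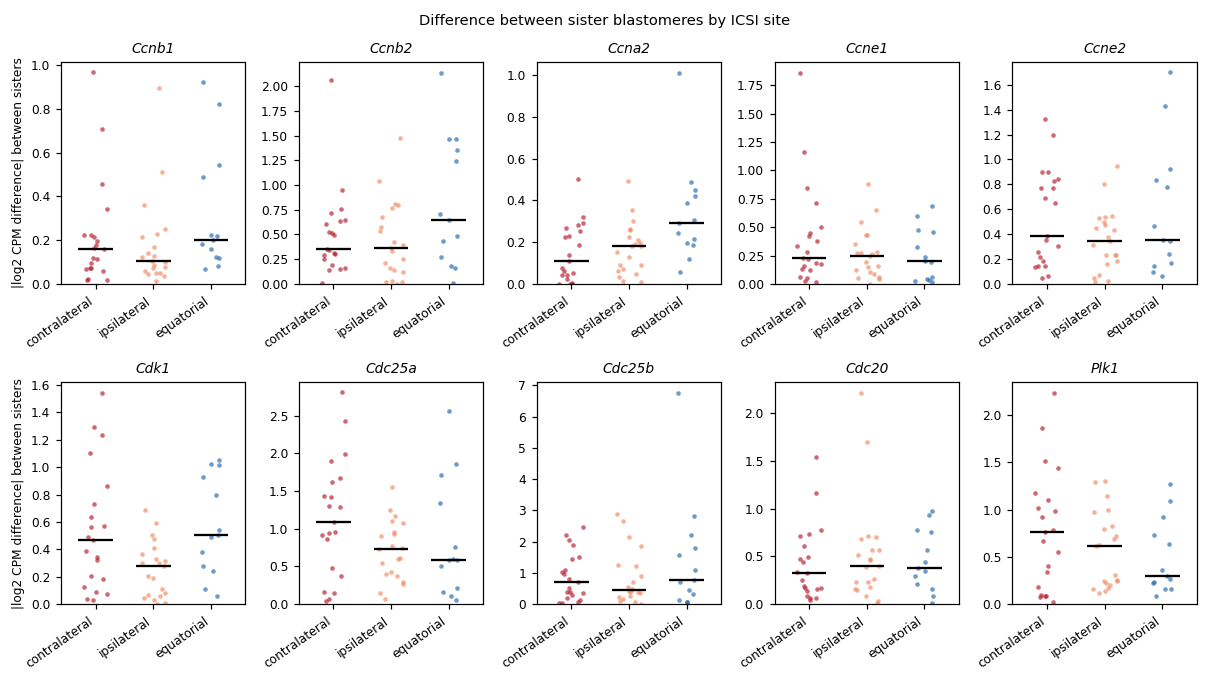
Absolute log2 difference in CPM between the sister blastomeres of each 2-cell embryo (points) after contralateral (n = 21), ipsilateral (n = 21) and equatorial (n = 13) ICSI; lines are medians, and each panel has its own axis from 0. All pairs lie under 1 for Ccnb1, and the Cdc25b panel reaches 6.77 in 1 equatorial pair.

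The genes did not shift between sisters as a unit. For the 45 combinations of 2 members, the number of pairs in which both were higher in the same sister ran from 20 to 37 of 55, with a median of 29. Ccne2 and Cdk1 shared their direction most often (37 pairs), and Ccnb1 shared it with Ccnb2 and with Ccna2 in 35 pairs each. Ccnb1 and Cdc25a shared it least often (20 pairs). The deeper library of a pair held the higher CPM in 24 to 31 of 55 pairs, depending on the gene. What sisters shared was largest for Ccne1, with an intraclass correlation of 0.63 after removal of site and plate means, above that of 99.1% of genes, and for Cdk1 (0.46), whereas Cdc25b had -0.07, below the median gene (0.13). The genes set beside the members here were not matched for level.

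The third question was whether twin blastocysts, each grown from 1 blastomere, differed from intact ones. Of the 10 genes, 9 were higher in twin pairs and 0 lower (edgeR, adjusted over 10689 genes), when 40.7% of all genes were called 20.1% as higher and 20.6% as lower. The median log2 difference was 0.89 over the 10 genes and 0.0031 over all genes. Ccnb2 showed no overlap, at 177 to 311 CPM in 19 twin pairs (median 226) and 7.82 to 138 CPM in 31 intact blastocysts (median 86.7), where 0.393% of genes had ranges that did not overlap and 0.253% had every twin pair above every intact blastocyst. Its log2 difference was 1.55 ± 0.17 (edgeR adjusted p = 4.3e-11).

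Cdk1 ranged from 153 to 291 CPM in twin pairs (median 229) and from 14.4 to 175 CPM in intact blastocysts (median 84.5), a log2 difference of 1.41 ± 0.18 (edgeR adjusted p = 2.9e-09). Cdc20 ranged from 218 to 379 CPM (median 297) against 14.8 to 222 CPM (median 116.996), a difference of 1.35 ± 0.13 (adjusted p = 8.1e-13), and 30 of 31 intact blastocysts were under the lowest twin pair. Twin pairs are sums of 2 libraries and intact blastocysts are single libraries. The part of this in the width of their ranges was not tested. Single twins reached down to 182 CPM for Cdc20 and 136 CPM for Cdk1. For Ccnb2 the lowest single twin was at 149 CPM, above the highest intact blastocyst. Cdc25b, at 7.93 to 25.3 CPM against 0 to 21.2 CPM, had the largest fitted difference (1.69 ± 0.42, adjusted p = 0.00085), on a median of 2 counts per intact blastocyst. The cyclins, kinases and phosphatases that remain differed less. Plk1 differed by 0.89 ± 0.20, Ccne1 by 0.89 ± 0.26, Ccnb1 by 0.69 ± 0.16, Cdc25a by 0.65 ± 0.19 and Ccna2 by 0.57 ± 0.18, with edgeR adjusted p from 0.00026 to 0.010. These 5 overlapped more, with 13 to 22 of 31 intact blastocysts under the lowest twin pair. Ccne2 was the exception, with medians of 9.19 CPM in twin pairs and 13.3 CPM in intact blastocysts and a log2 difference of -0.76 ± 0.33 (edgeR adjusted p = 0.058). It passed as lower in DESeq2 (-0.75, adjusted p = 0.012) and with the first twins alone (-0.91, edgeR adjusted p = 0.047). It did not pass with the second twins alone. Under the alternatives its log2 difference ran from -1.215 to -0.625.

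**Figure D5:**
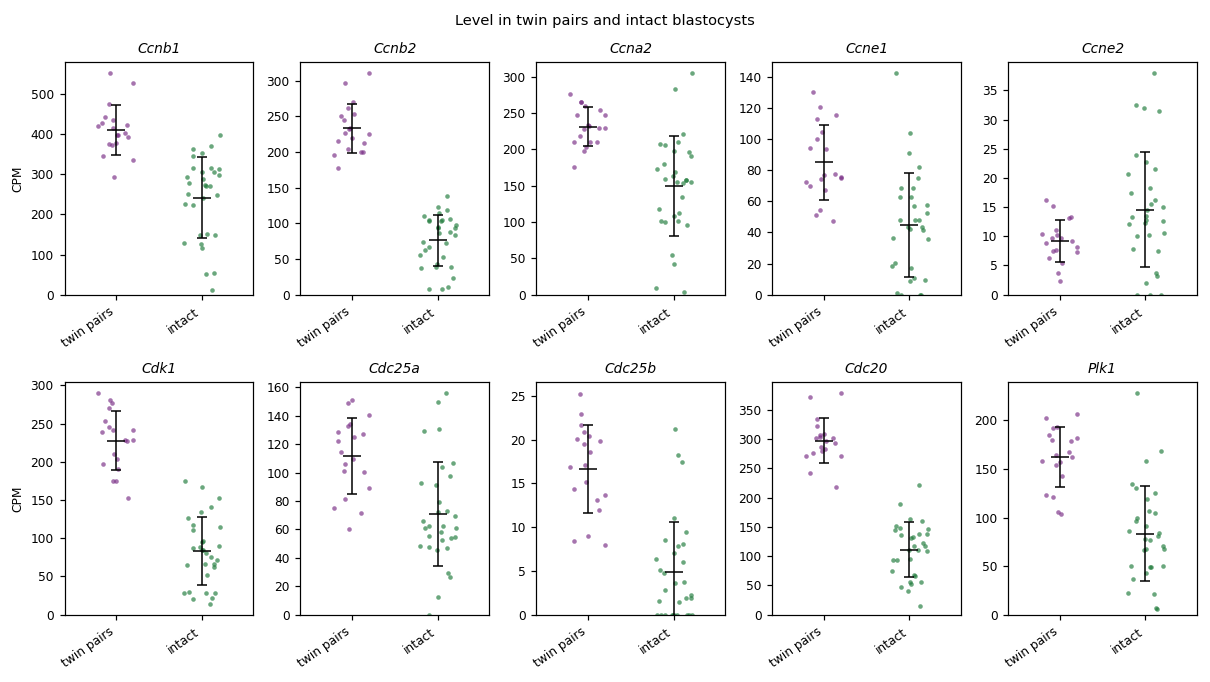
CPM of the 10 genes in twin pairs (both twins added, n = 19) and intact blastocysts (n = 31); points are embryos, horizontal marks with error lines are means ± SD, and each panel has its own axis from 0. The point clouds separate fully for Ccnb2 (lowest twin pair 177, highest intact blastocyst 138 CPM) and overlap in the other 9 panels.

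The 7 intact blastocysts with few detected genes were low in most members, as in Ccne1, with a median of 0.871 CPM in them and 50.4 CPM in the other 24, and Ccnb1, with 115.3 and 284 CPM. All 7 were contralateral or equatorial, since every ipsilateral intact blastocyst had at least 11671 detected genes. Site and detected genes were therefore not independent among intact blastocysts. Without these 7, all 10 genes passed, Ccne2 as lower in twins (-0.98, edgeR adjusted p = 0.0027). The share of all genes called in this fit is not given here, and with the 7 included it was 40.7%. The values of Ccnb2 (1.48), Cdk1 (1.30) and Cdc20 (1.20) were little smaller. With 1 twin of each pair and libraries of 700000 to 1300000 counts alone, Ccnb2 was at 1.32 (first twins) and 1.49 (second twins), and Ccne1 no longer passed (0.60 and 0.51, adjusted p = 0.12 and 0.15). In the same fits Cdc25b was lost with the second twins (1.14, edgeR adjusted p = 0.11), and Ccne2 passed as lower (-1.08 and -1.02, adjusted p = 0.038 and 0.030).

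Markers of the cell lineages moved in the same comparison. The epiblast list summed to 443 to 933 CPM in twin pairs and 32.1 to 603 CPM in intact blastocysts, with 6 of 8 genes higher and 0 lower, Tdgf1 by 1.77 ± 0.41. The trophectoderm list summed to 3972 to 5011 CPM and 4244 to 8019 CPM, with 2 of 10 genes higher and 6 lower, and Cdx2 at 1.46 ± 0.16. The primitive endoderm list summed to 836 to 1388 CPM and 565 to 1765 CPM, with 2 of 9 genes higher and 4 lower, and Foxa2 at -1.94 ± 0.55. With the 3 summed levels as covariates, 4 of the 10 genes remained called, Plk1 (1.56), Cdk1 (1.02), Cdc20 (0.88) and Ccnb2 (0.83), while the log2 difference of Ccnb1 was 0.29 (edgeR adjusted p = 0.51) and that of Ccna2 0.37 (adjusted p = 0.46). Ccne1 was at 0.17 (edgeR adjusted p = 0.84). Cdc25a (0.69, edgeR adjusted p = 0.20) and Cdc25b (1.72, adjusted p = 0.11) were also lost, at differences as large as before. Beyond this fit, the part of the lineage markers in the result was not tested.

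The wider cell cycle lists are read beside the 20.1% of all genes called higher and the 20.6% called lower in twin pairs. In the list of mitotic kinases and checkpoint, 18 of 31 measured genes were higher and 0 lower (median 0.64), and in that of the anaphase promoting complex 11 of 20 were higher and 0 lower (median 0.48). G1 and S phase control was divided, with 5 of 24 higher and 5 lower (median 0.14). Mybl2 (1.65 ± 0.14), Cdca8, which encodes borealin of the chromosomal passenger complex (1.10 ± 0.13), and Ube2c, the ubiquitin-conjugating enzyme of the anaphase promoting complex (1.01 ± 0.12), rose. The D-type cyclin gene Ccnd2 (-5.03 ± 0.61), E2f8 (-1.70 ± 0.28) and the kinase inhibitor gene Cdkn1a (-0.71 ± 0.14) fell, all 6 with edgeR adjusted p of at most 2.1e-05. Of 4 measured genes of the oocyte list 2 were higher and 1 lower, led by Dppa3 (2.89 ± 0.32). Stored and newly made transcripts of these genes cannot be told apart in the counts. The 1 measured cumulus gene, Amhr2, did not pass (0.27 ± 0.60).

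Within sites, the twin to intact difference of Ccnb2 was 1.94 ± 0.29 after contralateral, 1.36 ± 0.30 after ipsilateral and 1.35 ± 0.28 after equatorial ICSI, and that of Cdk1 was 1.44 ± 0.31, 1.48 ± 0.32 and 1.32 ± 0.30. Ccnb1 gave 1.14 ± 0.28, 0.45 ± 0.29 and 0.50 ± 0.27. Genes called within sites numbered 6, 4 and 3 of the 10 (17.8%, 10.9% and 13.6% of all genes). A test of the difference between sites (edgeR, interaction) called none of the 10 (0.0% of genes), and an unadjusted p was under 0.05 for 0 of the 10 and for 2.3% of all genes. DESeq2 also called none of the 10.

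Among twin pairs alone, the site of ICSI gave no call among the 10 genes (edgeR, 0.0% of genes, unadjusted p under 0.05 for 0 of the 10 and 0.384% of genes). Among intact blastocysts it gave none of the 10 either (0.0842% of genes), with an unadjusted edgeR p under 0.05 for Cdc20 (p = 0.0076), Ccne1 (p = 0.020) and Cdc25a (p = 0.031), as for 1394 of the 10689 genes. DESeq2 called none of the 10 in either set. Cdc20 had means of 80.9 ± 39.3, 128.2 ± 33.02 and 127.8 ± 49.5 CPM in contralateral, ipsilateral and equatorial intact blastocysts (SD, n = 11, 8 and 12), and 298 ± 21.6, 298 ± 46.5 and 297 ± 47.1 CPM in the twin pairs of the same sites (n = 6, 7 and 6). The 7 intact blastocysts with few detected genes, none of them ipsilateral, had a mean Cdc20 of 55.4 CPM, against 127.5 CPM in the other 24. Their part in the site values of intact blastocysts was not tested.

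Twins of a pair were close in most members. The median absolute log2 difference between twins was 0.15 for Ccna2, 0.25 for Ccnb1 and Plk1, 0.27 for Cdc20, 0.33 for Cdk1 and 0.36 for Ccnb2, against 0.50 for the median gene. Cdc25b differed by a median of 1.08, with counting error at 0.37, and Ccne2 by 0.75, with counting error at 0.43. Twins shared most in Cdc25a, whose intraclass correlation of 0.53 was above that of 96.4% of genes, and the value for Ccnb1 was 0.25 against 0.10 for the median gene. It was negative for Cdc25b (-0.47, above 0.88% of genes) and Cdc20 (-0.29, above 5.68% of genes). These shares of genes were not matched for level.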

How the data were processed

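Single blastomeres (125 libraries, 62 complete sister pairs) and single blastocysts (69 libraries) were sequenced by SMART-Seq. The authors trimmed reads with Trimmomatic, aligned them with STAR 2.7.10b to GRCm38 with GENCODE M23 and deposited raw counts per gene, without molecular identifiers and without strand. Paired reads were cut to first reads of 100 bases. Reads of genes overlapping on the opposite strand cannot be told apart, which touches Ccna2 (Exosc9), Ccne2 (Ints8), Cdc20 (Elovl1) and Cdc25b (Spef1), and RefSeq lists pseudogene copies of Ccnb1 and Ccnb2. No deposited column was left unmapped. The labels list equally many blastomeres for each of the 3 sites, but some of them have no column in the count table. After this and the filter below, 21 contralateral, 21 ipsilateral and 13 equatorial embryos remained. The loss was therefore largest in the equatorial group, and its part in the site comparisons was not tested.

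Blastomeres with fewer than 9500 detected genes were left out with their sisters, which left 55 pairs, and counts of both sisters or twins were added. The study also set a limit on mitochondrial counts, read here as a fraction of 0.02, which 11 blastomeres exceeded. The main fits did not apply this limit, which leaves 48 pairs and was used as an alternative. CPM and TPM (exonic lengths, GENCODE M21) were computed from the counts. Embryos were compared in edgeR 4.0.16 (R 4.3.3) by its robust quasi-likelihood test, after TMM scaling and filterByExpr, and at the 2-cell stage the model held the plate; p-values were adjusted by Benjamini-Hochberg and read at 0.05. Sister differences were absolute differences of log2(CPM + 1), a scale that understates the change of low genes, compared by permutation (100000 relabelings, scipy 1.17.1). Alternatives used DESeq2 1.42.0 and other filters, scalings, samples and covariates. The scripts were tested on simulated data. Named were all 10 members, the 3 genes of smallest adjusted p per direction in the 3 wider cell cycle lists, the gene of largest change in each other list, and the 3 genes most like Ccnb1. Members and lists were chosen with earlier results of these data known. The study injected and bisected embryos of all 3 sites on shared days, but the labels do not tie embryos to days, so day could not enter the fits and p-values measure the spread between these embryos. The genes called for sister differences between ipsilateral and equatorial pairs, none of them a member, are not reported here by name.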

Additional observations from a re-analysis of the deposited data

Results flagged for a closer look

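Of 40 groups of 4 to 10 blastocyst samples examined for a sample far from the others, 2 had one, and chance alone gives about 1 in 20 groups. Ccnb1 was at 292 CPM in 1 ipsilateral twin pair, while the other 6 pairs of that site lay between 377 and 436 CPM. Ccne1 was at 104 CPM in 1 ipsilateral intact blastocyst, while the next was at 68.6 and the lowest at 41.8 CPM.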

How the results depend on the processing

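Of 810 values of the 10 genes under alternatives, 738 kept their direction and side of the threshold and 72 did not. The sign turned in 42 of these. Plk1 in plate 2 alone was the 1 turned value that had passed the test, the other 41 had not passed, and none of the 42 passed under its alternative. For levels, contralateral against equatorial, the sign turned for Ccna2 (0.077), Cdk1 (0.34), Cdc25a (0.59), Cdc25b (0.37), Cdc20 (0.15) and Plk1 (0.016) in plate 2 alone. For levels, ipsilateral against equatorial, the sign turned for Ccna2 (-0.0025) and Cdc25b (-0.022) in plate 1 alone, for Ccna2 (-0.015) by the rank test, for Ccne1 (0.17), Cdc25a (0.38) and Cdc20 (0.13) in plate 2 alone, for Cdc25b (-0.052) with depth covariates. For levels, contralateral against ipsilateral, the sign turned for Ccnb2 (-0.026), Cdk1 (0.072), Cdc25a (0.21), Cdc25b (0.031), Cdc20 (0.027) and Plk1 (0.38) in plate 2 alone, for Ccnb2 (-0.024) by the rank test, for Cdc25a (0.063) with 48 pairs, for Cdc20 (0.0088) in plate 1 alone, for Cdc20 (0.050) with 62 pairs. For sister differences, contralateral against equatorial, the sign turned for Ccne2 (0.75) and Cdc25b (0.070) after division by counting error, for Ccne2 (0.0060), Cdk1 (0.038) and Cdc20 (0.053) with 48 pairs, for Cdc25a (-0.22) with 62 pairs. For sister differences, ipsilateral against equatorial, the sign turned for Cdk1 (0.075) and Cdc20 (-0.15) with 62 pairs, for Cdc25b (0.13) after division by counting error. For sister differences, contralateral against ipsilateral, the sign turned for Ccnb1 (-0.031), Ccne1 (-0.37), Cdk1 (-0.27) and Cdc25b (-0.11) with 62 pairs, for Ccnb2 (-0.16), Cdc25b (-0.060) and Plk1 (-0.17) after division by counting error, for Ccnb2 (-0.075) and Cdc25b (-0.073) with 48 pairs, for Ccna2 (0.012) in plate 1 alone.

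Between contralateral and equatorial embryos Plk1 was also lost with 48 pairs under the mitochondrial limit (edgeR adjusted p = 0.19). Between ipsilateral and equatorial embryos Ccne2 passed under 5 alternatives, and Ccne1 passed with 62 pairs (-0.46, edgeR adjusted p = 0.026). Alternatives chosen after seeing the data were each use of plate 2 alone, the activation and lineage covariates, libraries of similar depth and leaving out blastocysts of few genes.

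Against 1733 genes called between contralateral and equatorial embryos there were 3930 without a filter on low counts, 1104 with 48 pairs, 1105 with the activation covariate and 0 in plate 2, where 0 members were called. Against 874 between ipsilateral and equatorial embryos there were 2603 without a filter, 61 with depth covariates, 486 with the activation covariate, 1362 by a rank test and 0 in plate 2, and 0 members were called with depth covariates and in plate 2. Without a filter, 1577 genes were called between contralateral and ipsilateral embryos. The 4 genes called for sister differences became 9 with a pseudocount of 0.1, 0 with 10, 0 after division by counting error, 0 in plate 1, 0 with 62 pairs and 9 among genes with a mean of at least 10 counts. For twins, lineage covariates left 4 members and 1281 genes. For the site in intact blastocysts, 9 genes became 189 in DESeq2, 558 without a filter, 0 with the first twins, 0 with the second and 0 by a rank test. The causes were not tested. No paired analysis was possible because the groups share no embryo and no replicate number from the labels. Depth limits Cdc25b in intact blastocysts, with a median of 2 counts.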
